A study of Schizosaccharomyces pombe with 8 samples.

Results

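The 7 genes described here encode subunits of eIF3, the largest translation initiation factor, in the fission yeast Schizosaccharomyces pombe. They are tif301 (eIF3a), tif302 (eIF3b), tif303 (eIF3c), sum1 (eIF3i), moe1 (eIF3d), int6 (eIF3e) and tif308 (eIF3h). They were chosen by name, through the gene identifier, and all 7 were found among the 527 genes of the deposited count table. RNA was sequenced in 8 libraries from slr1- cells, a knockout of the LARP1 homolog Slr1p, and from WT cells (strain yAS99), as polysome RNA and as total RNA, with 2 biological replicates per group according to the labels. Cells of both strains grew in YES medium and carry the same treatment label, 100 µg/mL cycloheximide, a drug that holds ribosomes on mRNA. The slr1 gene itself was not analysed here, so the strain of each library rests on its label.

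eIF3 binds the small ribosomal subunit, keeps it apart from the large subunit and helps bring the initiator tRNA and the mRNA to it. The eIF3a and eIF3c proteins form the scaffold of the complex, eIF3b joins it to the WD-repeat protein eIF3i and to eIF3g, and eIF3d, eIF3e and eIF3h are subunits found in fission yeast and humans but not in budding yeast. In fission yeast Moe1 binds Int6, and Int6 and eIF3m mark different forms of eIF3. Human LARP1 binds mRNAs of the translation machinery at their 5′ ends, which begin with a run of pyrimidines, so the starts of the 7 mRNAs are shown here with their genome positions.

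All 7 genes are protein-coding and lie on chromosomes I and II of the assembly ASM294v3 (RefSeq). tif302 (SPAC25G10.08.1, chrI:4310561-4313061, + strand), tif303 (SPAC4A8.16c.1, chrI:2580100-2582989, - strand) and moe1 (SPAC637.07.1, chrI:4551840-4553741, +) have 1 exon each. tif301 (SPBC17D11.05.1, chrII:3314331-3317452, +) and int6 (SPBC646.09c.1, chrII:938621-940308, -) have 2 exons, and sum1 (SPAC4D7.05.1, chrI:5358924-5360504, +) and tif308 (SPAC821.05.1, chrI:988361-989866, +) have 3. The 30 bases up to and including the start codon are shown because they hold the whole annotated 5′ leader of tif301, tif302, tif303 and moe1, and the last 27 bases of the longer leaders of sum1, int6 and tif308. Capitals mark bases inside the annotated transcript and lower case marks bases before it.
tif301: caagggggaagttttcaactGCACAACATG
tif302: actagagacAACGGCACTACACCAGAAATG
tif303: acgaaaaaaaacttGCCAACCACCAACATG
sum1: CTCTACCAGCACTTTCCTGTTCAAAAGATG
moe1: cttcgaagaaaacttcACCACTCCCAAATG
int6: TTTTTTTTTGCGTGAAACATATCAGATATG
tif308: ACCAACTACTTGGCAGACTTAAAAAACATG
These windows are at chrII:3314311-3314340 (tif301, + strand), chrI:4310552-4310581 (tif302, +), chrI:2582974-2583003 (tif303, - strand), chrI:5358929-5358958 (sum1, +), chrI:4551824-4551853 (moe1, +), chrII:940259-940288 (int6, -) and chrI:988370-988399 (tif308, +).

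The annotated 5′ leader is 7 bases long in tif301, 18 in tif302, 13 in tif303, 32 in sum1, 11 in moe1, 47 in int6 and 36 in tif308. The median is 18 bases, against 40 bases for the 515 listed genes with an annotated transcript and 78 bases for 5144 protein-coding transcripts of the genome. Leaders under 50 bases are found in 7 of the 7 genes, in 56.3% of the listed genes and in 38.3% of all transcripts, and the 126 listed ribosomal protein genes have a median of 19.5 bases. These medians and shares count transcripts annotated without a leader as 0 bases. Such transcripts make up 2.52% of the listed genes and 12.3% of all transcripts, and no member is among them. Pyrimidines (C or T) make up a median of 53.8% of the 7 leaders. The median is 51.4% over the 502 listed genes with an annotated leader and 53.1% over the 4512 transcripts with one. The longest run of pyrimidines within a leader is 10 bases in int6, 7 in sum1, 5 in moe1, 4 in tif308, 2 in tif302 and tif303, and 1 in tif301. Such runs were not computed over all genes. The first annotated base is a pyrimidine in tif308 alone of the 7 genes, and in 3.97% of all transcripts, those without a leader included. A run of at least 5 pyrimidines from the first base is found in 0 of the 7 genes and in 0.389% of all transcripts. The HomolD box, a promoter element of fission yeast ribosomal protein genes, was searched as CAGTCACA on both strands in the 250 bases before each transcript. It was present before 0 of the 7 genes, 64.3% of the listed ribosomal protein genes and 2.6% of all transcripts. These are starts as annotated, not as mapped in these cells, and nothing about binding follows from a match or its absence.

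The 8 libraries held between 550490 and 1110838 counts over the listed genes, which is a part of each library and not its depth. Replicates differed by an SD of the log2 ratio over genes of 0.249 in slr1- polysome RNA, 0.164 in WT polysome RNA, 0.278 in slr1- total RNA and 0.29 in WT total RNA. Counts are given here after scaling by TMM factors (trimmed mean of M values) to a common library size, and are called normalised counts. Tests are two-sided quasi-likelihood tests in edgeR, with p-values adjusted by Benjamini-Hochberg over all 527 genes and a threshold of 0.05. Ribosomal protein genes make up much of the listed counts and weigh on the scaling, so the factors were also computed without them.

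In total RNA the mRNAs of 4 of the 7 subunits, tif301, tif302, tif303 and int6, fell in slr1- cells to between 0.476 and 0.588 of their WT level. The other 3, sum1, moe1 and tif308, did not pass, with log2 values of -0.27 to -0.32 that turned to 0.02 to 0.06 with factors computed without ribosomal protein genes. No member rose. Of all 527 genes 53.3% passed, 33.6% as lower and 19.7% as higher, so the count of 4 in 7 is read against that share. That share is over the listed genes alone, and the rule that listed them is not stated. The median log2 change of the members was -0.76, against -0.19 over all genes. In bulk RNA, fewer cells that hold an mRNA and less of it per cell cannot be told apart.

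The scaffold mRNA tif301 had 416 and 440 normalised counts in slr1- total RNA, against 708 and 747 in WT. It fell by 0.76 ± 0.12 on the log2 scale (SE, n = 2 libraries per group; edgeR adjusted p = 0.00159). The other scaffold mRNA, tif303, had 293 and 371 normalised counts in slr1- total RNA, against 604 and 597 in WT. Both slr1- libraries of each gene lay below both WT libraries, and the tif303 change was -0.86 ± 0.14 (adjusted p = 0.00196). The largest change of the 7 was that of tif302, whose protein links the scaffold to eIF3i. It had 263 and 321 normalised counts in slr1- total RNA, against 626 and 598 in WT. Its log2 change was -1.07 ± 0.14 (adjusted p = 0.000945), the 10th lowest of 527 values.

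For int6, which encodes eIF3e, slr1- total RNA held 336 and 394 normalised counts and WT total RNA 627 and 696. The groups did not overlap, and the log2 change was -0.86 ± 0.14 (adjusted p = 0.00161). Its binding partner moe1 had 340 and 373 normalised counts in slr1- total RNA, against 461 and 429 in WT (-0.32 ± 0.14, adjusted p = 0.0687). The WD-repeat subunit gene sum1 had 820 and 909 in slr1-, against 964 and 1124 in WT (-0.27 ± 0.12, adjusted p = 0.083). For tif308 the values were 412 and 454 in slr1- and 488 and 577 in WT (-0.30 ± 0.14, adjusted p = 0.0887). In all 7 genes both slr1- libraries lay below both WT libraries, which held as lower for 47.8% of all genes. The difference in response between the partners moe1 and int6 was not tested.

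The calls of tif301, tif302, tif303 and int6 in total RNA held under all 12 alternatives tried for each, with log2 changes between -1.25 and -0.43 over the 4 genes. Without ribosomal protein genes in the factors sum1 stood at 0.06, moe1 at 0.02 and tif308 at 0.04. With library sizes alone all 3 passed as lower (-0.45, -0.50 and -0.48), as did 260 of all 527 genes. sum1 and tif308 also passed as lower among genes of at least 500 counts (-0.42, adjusted p = 0.0234, and -0.44, adjusted p = 0.0337) and without WT total replicate 1 (-0.38 and -0.41), and moe1 did without slr1- total replicate 2 (-0.39).

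**Figure D1:**
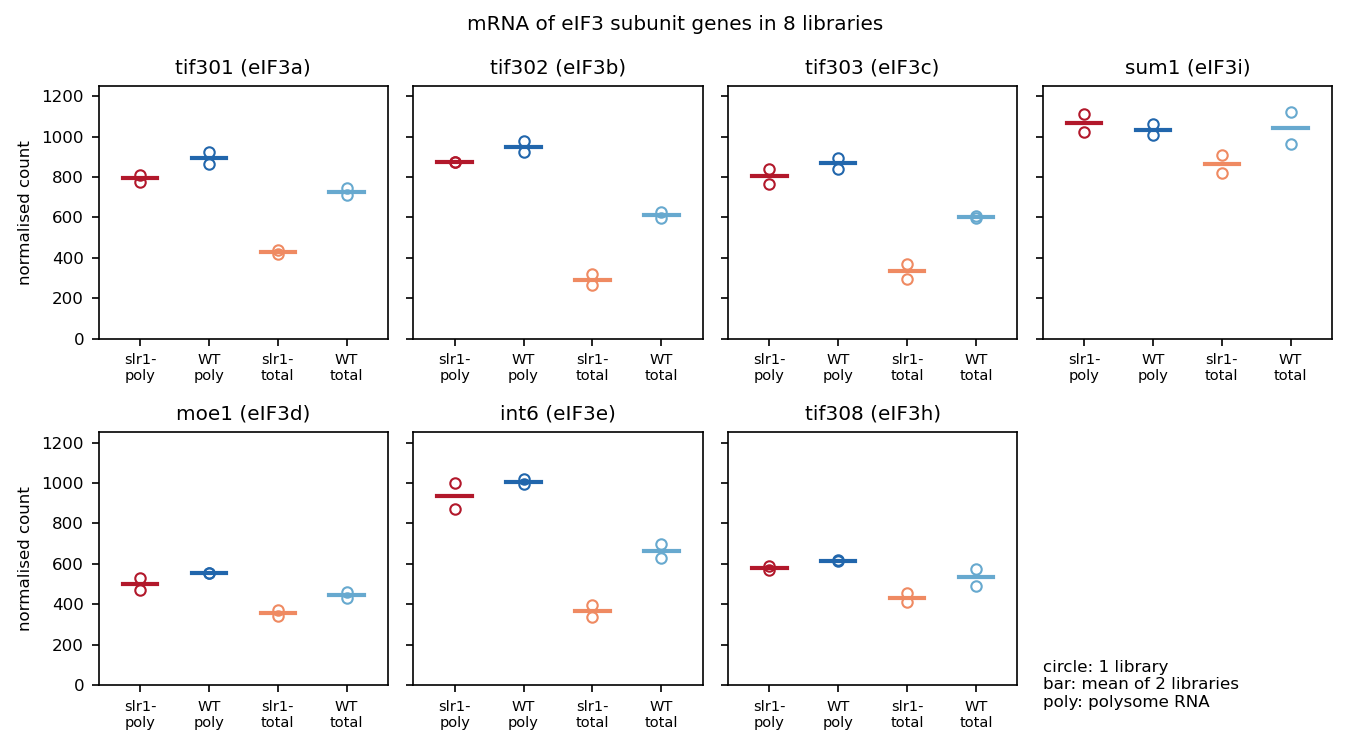
Normalised counts (vertical axis, linear from 0) of the 7 eIF3 genes in slr1- polysome, WT polysome, slr1- total and WT total RNA; each circle is 1 library and each bar the mean of 2. The slr1- total RNA libraries are the lowest of each panel, at 263 and 321 for tif302, whereas polysome libraries of both strains stand close together.

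Ratios between members within a library do not depend on the scaling. sum1 and tif302, the members with the smallest and the largest change, were set against each other after their values were seen. The count of tif302 was 0.321 and 0.353 of that of sum1 in slr1- total RNA, against 0.649 and 0.533 in WT total RNA. In polysome RNA the same ratio was 0.789 and 0.853 in slr1- and 0.918 and 0.921 in WT. Against sum1, int6 stood at 0.41 and 0.433 in slr1- total RNA and at 0.65 and 0.62 in WT total RNA. For both genes the 2 slr1- total RNA ratios lay below the 2 WT ones, as they also did for tif301, tif303 and, narrowly, tif308. The share of all genes with this order against sum1 was not computed. Against sum1, moe1 overlapped between the strains in total RNA, at 0.415 and 0.411 in slr1- and 0.478 and 0.382 in WT. tif308 stood at 0.502 and 0.499 in slr1- and at 0.506 and 0.513 in WT. Together the 7 genes held 0.317% and 0.367% of the listed counts in slr1- total RNA, against 0.558% and 0.608% in WT total RNA. In polysome RNA they held 0.859% and 0.774% in slr1- and 0.91% and 0.949% in WT.

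In polysome RNA, the mRNA carried by several ribosomes, no eIF3 gene passed between slr1- and WT, and 0% of the 527 genes did. With this edgeR test, 0 of the 7 members and 100 of all genes had an unadjusted p under 0.05, and 27 genes passed in DESeq2, none of them a member, where 6 of the 7 members were given no adjusted p. The member with the largest total RNA change, tif302, had 876 and 873 normalised counts in slr1- polysome RNA, against 924 and 977 in WT. Its log2 change was -0.12 ± 0.13, with a 95% interval from -0.41 to 0.17 (adjusted p = 0.637). For tif301 the values were 810 and 776 in slr1- and 866 and 924 in WT (-0.17 ± 0.12, 95% interval -0.44 to 0.09). For tif303 they were 840 and 766 in slr1- and 840.2 and 895 in WT (-0.11 ± 0.14, interval -0.42 to 0.20).

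The polysome values of int6 overlapped, with 1002 and 869 normalised counts in slr1- and 993 and 1019 in WT (-0.11 ± 0.13, interval -0.40 to 0.19). Those of sum1 overlapped as well, with 1110 and 1024 in slr1- and 1006 and 1061 in WT (0.05 ± 0.12, interval -0.23 to 0.32). The moe1 mRNA had 529 and 472 in slr1- polysome RNA and 553 and 556 in WT (-0.15 ± 0.14, interval -0.45 to 0.15). That of tif308 had 587 and 569 in slr1- and 612 and 620 in WT (-0.09 ± 0.14, interval -0.39 to 0.21). For tif301, tif302, tif303 and int6 the lower end of the polysome interval, -0.40 to -0.44, lay above the total RNA estimate of the same gene. This leaves out the error of the total RNA estimate and is no test of a difference between the fractions. That test follows in the next paragraph. In 5 of the 7 genes both slr1- libraries lay below both WT libraries, as in 30.6% of all genes. The intervals still allow a fall of up to 0.45 on the log2 scale (moe1), so equal levels are not shown.

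The change of the polysome to total ratio between strains was tested as the interaction of strain and RNA fraction. All 7 estimates were positive, as were those of 329 of all 527 genes. Without ribosomal protein genes in the factors those of moe1 and tif308 turned to -0.10 and -0.07, and 189 of all genes were positive. Without slr1- polysome replicate 1 that of moe1 turned to -0.03. In the main fit 0 of the 7 passed, with 0.38% of all genes past the threshold. The estimate for tif302 was 0.95 ± 0.19 (95% interval 0.53 to 1.37, unadjusted p = 0.000411 in the edgeR fit, adjusted p = 0.0531). Those for int6 (0.75 ± 0.19, adjusted p = 0.0596), tif303 (0.75 ± 0.20, adjusted p = 0.0645) and tif301 (0.59 ± 0.17, adjusted p = 0.074) also had intervals above 0. These 4 genes had an unadjusted p under 0.05, as did 140 of all 527 genes. For sum1 (0.32 ± 0.17), tif308 (0.21 ± 0.19) and moe1 (0.17 ± 0.19) the intervals included 0. The median of the members was 0.59, against 0.15 over all genes. The tif302 estimate passed under 7 of 16 alternatives, DESeq2 among them (0.87, adjusted p = 0.00696), and adjusted p ranged from 0.00696 to 0.184 over all 16. This comparison uses the libraries of the strain comparisons already given and is no separate evidence.

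**Figure D2:**
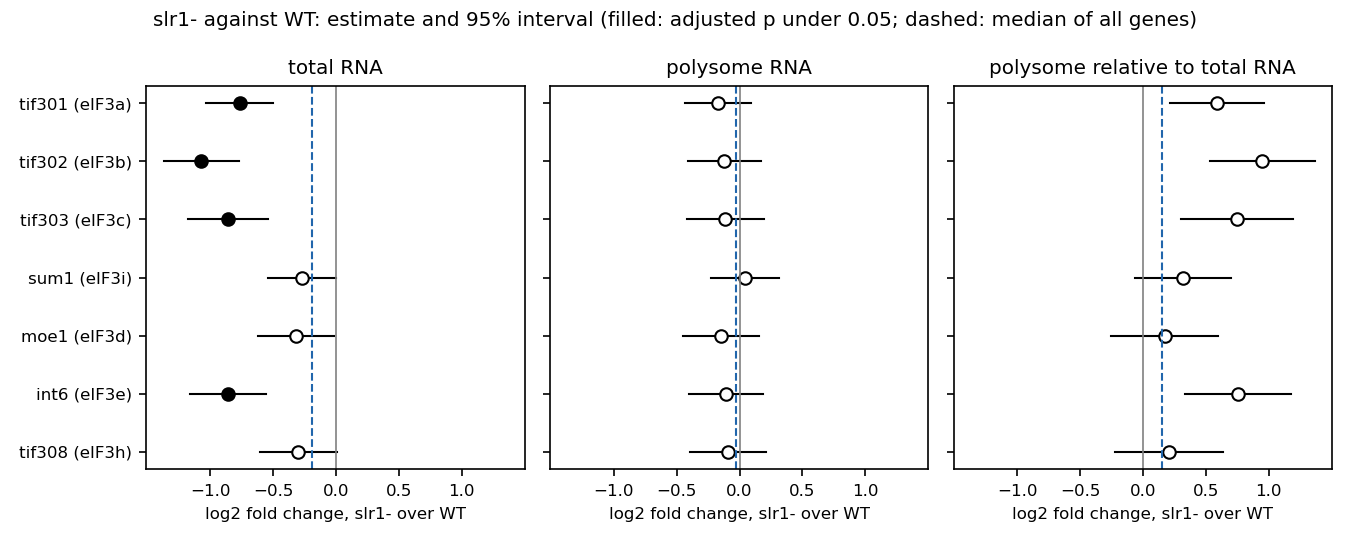
Log2 fold change of slr1- over WT for the 7 genes in total RNA, polysome RNA and polysome relative to total RNA, with 95% intervals; filled points have an adjusted p under 0.05 and the dashed line is the median of all 527 genes. Filled points are found in total RNA alone, for tif301, tif302, tif303 and int6.

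In the authors' deposited table, tif301, tif302, tif303 and int6 have a false discovery rate in total RNA between 6.47e-06 and 0.000385, and carry the change type "both". In the same authors' deposited table sum1, moe1 and tif308 have rates of 0.196, 0.131 and 0.168 and the type "translational_only". The authors' deposited table gives a ratio of polysome to total RNA in slr1- over that in WT, from counts not scaled for library size, of 1.97 and 1.7 for tif302. The authors' deposited table gives 0.0711 as the p of tif302 in the translation test and 0.859 as its false discovery rate. In the authors' deposited table that rate is 0.996 for sum1, 0.929 for moe1 and 0.941 for tif308. It is under 0.05 for 0 of the 527 genes, so neither change type marks a gene that passed the translation test at 0.05. In the authors' deposited table every listed gene carries a change type, 250 "both" and 277 "translational_only", and 250 have a total RNA rate under 0.05. Shares of all genes given here, the adjustment and the scaling therefore rest on a list of labelled genes, not on the genome.

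Polysome RNA was then compared with total RNA within each strain. In slr1- cells all 7 eIF3 mRNAs were higher in polysome than in total RNA and passed the test, against 64.7% of all genes passing and 34% passing as higher. Without ribosomal protein genes in the factors 4 of the 7 still passed and sum1 turned to -0.08. Of all 527 genes 100 then passed as higher and 246 as lower. Both polysome libraries lay above both total libraries in all 7, as in 44.2% of all genes. In WT cells 3 passed, tif302, int6 and tif303, all higher in polysome RNA, against 49.7% of all genes passing and 20.9% passing as higher. The same order of libraries was seen in 6 of the 7 and in 38.7% of all genes. Both comparisons are relative to the listed genes, since the scaling sets the middle of each library. These tests share their libraries with the strain comparisons.

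In slr1- cells tif302 was 3-fold higher in polysome RNA, at 876 and 873 normalised counts against 263 and 321 in total RNA (log2 1.58 ± 0.14, edgeR adjusted p = 5.83e-06). int6 followed at 1.36 ± 0.14 and tif303 at 1.28 ± 0.14 on the log2 scale, and tif301 at 0.89 ± 0.12. The values of moe1 (0.49 ± 0.14), tif308 (0.42 ± 0.14) and sum1 (0.30 ± 0.12, adjusted p = 0.0492) were smaller. With factors computed without ribosomal protein genes moe1 (0.11) and tif308 (0.04) no longer passed. The tif308 call was also lost in DESeq2 and without any 1 of slr1- polysome replicate 1 (0.29), replicate 2 (0.42) and slr1- total replicate 1 (0.35). The moe1 call was lost without slr1- polysome replicate 1 (0.29). The sum1 call held under 3 of 12 alternatives, and its value was 0.13 without slr1- polysome replicate 1 (adjusted p = 0.503).

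In WT cells tif302 had 924 and 977 normalised counts in polysome RNA, against 626 and 598 in total RNA (log2 0.63 ± 0.13, adjusted p = 0.00269). The values of int6 (0.60 ± 0.14, adjusted p = 0.00419) and tif303 (0.53 ± 0.14, adjusted p = 0.0105) were close to it. The tif303 call was lost without WT polysome replicate 2 (0.50). tif301 (0.30 ± 0.12, adjusted p = 0.0577), moe1 (0.32 ± 0.14, adjusted p = 0.0747) and tif308 (0.21 ± 0.14, adjusted p = 0.226) did not pass. For sum1 polysome and total RNA overlapped (-0.02 ± 0.12, adjusted p = 0.938). As a ratio of same-numbered libraries, polysome over total RNA of tif302 was 3.33 and 2.72 in slr1- and 1.47 and 1.63 in WT. For int6 it was 2.98 and 2.21 in slr1-, against 1.58 and 1.46 in WT. For sum1 it was 1.35 and 1.13 in slr1-, against 1.04 and 0.944 in WT.

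**Figure D3:**
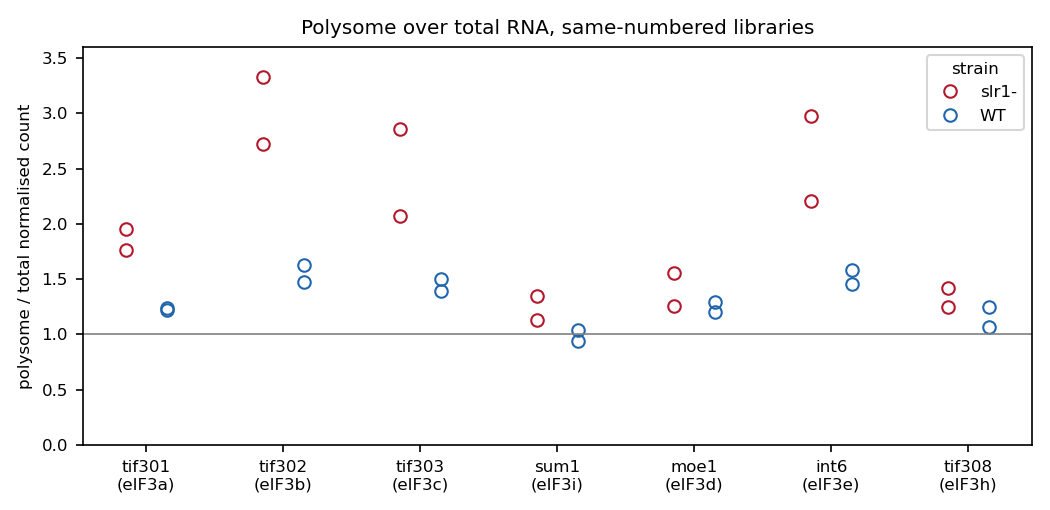
Ratio of polysome to total normalised counts (vertical axis, linear) in the 2 same-numbered library pairs of slr1- and of WT for each eIF3 gene. The slr1- ratios of tif301, tif302, tif303, int6 and sum1 lie above those of WT, and the ratios of moe1 overlap between strains. Those of tif308 meet at 1.25 as rounded (1.42 and 1.25 in slr1-, 1.25 and 1.07 in WT). The share of all genes with slr1- ratios above those of WT was not computed. Nothing states that same-numbered libraries come from the same culture.

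Levels of the 7 mRNAs were compared with each other per kilobase of annotated transcript. sum1 was the highest in every group, at 912 ± 52 normalised counts per kilobase in slr1- polysome, 883 ± 33.3 in WT polysome, 739 ± 53.8 in slr1- total and 892 ± 96.2 in WT total RNA (mean ± SD, n = 2). In WT total RNA tif308 (413 ± 48.5) and int6 (406 ± 29.9) came next and overlapped. They were followed by tif302 (245 ± 7.88), tif301 (236 ± 8.84) and moe1 (234 ± 11.9), which overlapped in that order, and by tif303 (208 ± 1.68). In slr1- total RNA the order after sum1 was tif308 (336 ± 22.8), int6 (224 ± 25.2), moe1 (188 ± 12.3) and tif301 (139 ± 5.49), with no overlap between neighbours. tif302 (117 ± 16.3) and tif303 (115 ± 18.9) were the lowest and overlapped. In polysome RNA int6 ranked above tif308 in both strains, at 573 ± 57.5 in slr1- and 616 ± 11.2 in WT, against 449 ± 9.72 and 478 ± 4.19 for tif308. Then came tif302 at 350 ± 0.74 in slr1- and 380 ± 15.2 in WT. tif303 (278 ± 18 in slr1-, 300 ± 13.4 in WT), moe1 (263 ± 21.2 and 292 ± 0.906) and tif301 (258 ± 7.93 and 291 ± 13.3) were the lowest and overlapped in both strains.

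The 3 longest transcripts of the 7, those of tif301 (3077 bases), tif303 (2890) and tif302 (2501), passed in total RNA. Of the shorter ones int6 (1632 bases) passed, and moe1 (1902), tif308 (1288) and sum1 (1170) did not. Across the 7 genes the Spearman correlation of transcript length with the total RNA change was -0.571, and with the polysome RNA change -0.857. Across the 515 listed genes with a length the same measures were -0.515 and -0.64, and across the 389 of them that are not ribosomal protein genes -0.285 and -0.503. Among those 389 genes the median total RNA change was -0.20 under 1500 bases, -0.41 from 1500 to 2499 bases and -0.55 at 2500 bases or more. The members are themselves part of these classes, and no rank within a class was taken. The 3 members of at least 2500 bases, with tif302 at the edge of the class, lay below its median, at -0.76 to -1.07. Of the members between 1500 and 2499 bases int6 (-0.86) lay below the median of its class and moe1 (-0.32) above it, and those under 1500 bases, sum1 (-0.27) and tif308 (-0.30), lay below theirs. The values come from the same 8 libraries, so the genes are not independent points. The part of length in the changes was not tested.

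**Figure D4:**
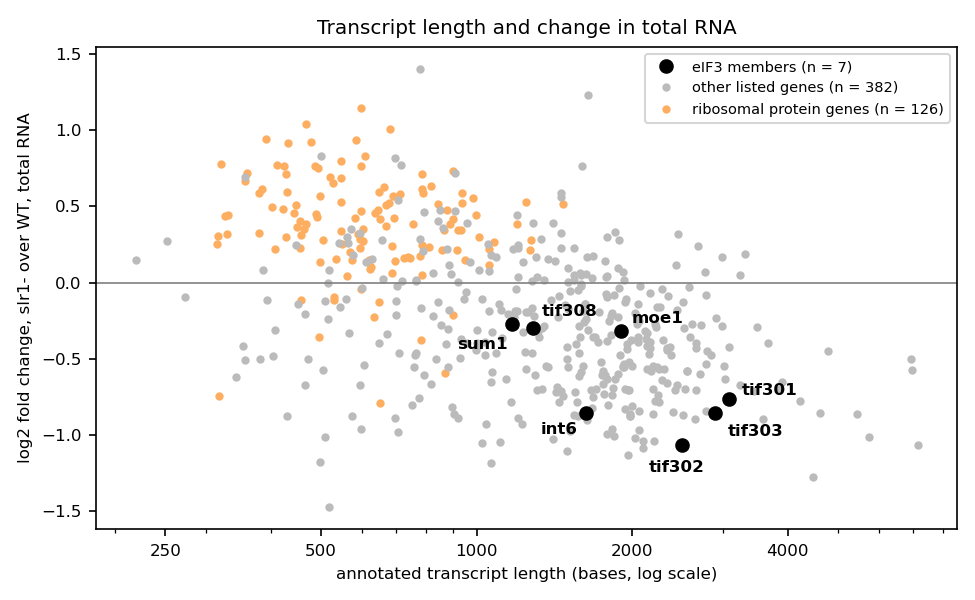
Annotated transcript length (horizontal axis, log scale) against the log2 change of slr1- over WT in total RNA for 515 listed genes. The eIF3 members (black) lie between 1170 and 3077 bases and between -1.07 and -0.27, with tif302 the lowest of them.

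Other eIF3 subunit genes in the table were tif306 (eIF3f), tif307 (eIF3g) and tif313 (eIF3m), and the call of each was known when they were set beside the 7. In total RNA tif313 had 379 and 490 normalised counts in slr1- and 685 and 726 in WT (log2 -0.70 ± 0.14, adjusted p = 0.00364). tif307, the RNA-binding subunit next to eIF3b, had 536 and 559 in slr1- and 797 and 815 in WT (-0.56 ± 0.12, adjusted p = 0.00425). The tif307 call was lost with factors computed without ribosomal protein genes (-0.22) and with the compared groups alone (-0.43). tif306 did not pass (-0.19 ± 0.13, adjusted p = 0.221). In polysome RNA these 3 genes lay between -0.06 and -0.01. The int6 and tif313 mRNAs, whose proteins mark different forms of eIF3, both fell in total RNA.

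Of 26 further initiation factor gene names looked up, 17 were in the table, those 3 included. In total RNA 8 of these 17 fell, 0 rose and 9 did not pass, with a median of -0.28. Over all genes 33.6% were lower and 19.7% higher, with a median of -0.19. With factors computed without ribosomal protein genes 3 of the 17 passed as lower and 2 as higher (median 0.06), and with library sizes alone 13 as lower and 0 as higher (median -0.46). Of all 527 genes 72 passed as lower and 182 as higher with the former (median 0.15). With the latter 260 passed as lower and 60 as higher (median -0.37). The largest falls were in rli1, the ABCE1 gene of ribosome recycling (-0.86 ± 0.19, adjusted p = 0.00536), tif471, encoding eIF4G (-0.86 ± 0.25, adjusted p = 0.0153), and tif5, encoding eIF5 (-0.75 ± 0.19, adjusted p = 0.00857). The tif5 call was lost without slr1- total replicate 1 (-0.51). That of tif471 was lost without slr1- total replicate 1 (-0.48) or WT total replicate 1 (-0.83), and with factors computed without ribosomal protein genes (-0.54). In polysome RNA 0 of the 17 passed, and the smallest p was that of the poly(A)-binding protein gene pabp (-0.34 ± 0.12, adjusted p = 0.152). In the interaction 0 passed either, with tif212 of eIF2 nearest to the threshold (0.83 ± 0.21, adjusted p = 0.0605). It passed under 4 alternatives, among them DESeq2 (0.75, adjusted p = 0.0431). Within strains 10 of the 17 passed as higher in polysome than in total RNA in slr1- (34% of all genes) and 5 in WT (20.9% of all genes). As lower 0 of the 17 passed in either strain, against 162 of all 527 genes in slr1- and 152 in WT. Without ribosomal protein genes in the factors 5 passed as higher and 4 as lower in slr1-, and 4 as higher and 2 as lower in WT. Of all 527 genes 100 then passed as higher and 246 as lower in slr1-, and 79 as higher and 166 as lower in WT. tif5 led in both, at 1.89 ± 0.19 in slr1- and 1.24 ± 0.18 in WT, followed by rli1 (1.46 ± 0.19) and tif471 (1.31 ± 0.25) in slr1-, and by tif471 (1.06 ± 0.24) and rli1 (0.68 ± 0.19) in WT. The rli1 call in WT was lost without WT total replicate 2 (0.54).

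Over the 8 libraries, 5 genes outside the 7 came closest to the mean profile of the members, by the root mean square difference of centred log2 values. They were pcn1, the PCNA gene of DNA replication (0.0463), scs2 of the endoplasmic reticulum membrane (0.0578), the glutamate-tRNA ligase gene gus1 (0.0614), the pseudouridine synthase gene cbf5 (0.0655) and his5 of histidine synthesis (0.079). Their total RNA changes lay between -0.63 and -0.55, and their polysome RNA changes between -0.16 and -0.03. All 5 passed as lower in total RNA, as did 33.6% of all genes. They were chosen for closeness to a profile that is low in slr1- total RNA, so this count follows from the choice. Each lost the call with factors computed without ribosomal protein genes (-0.30 to -0.22). The calls of cbf5 (-0.49) and scs2 (-0.41) were also lost without slr1- total replicate 1, and that of scs2 with the compared groups alone (-0.43). Among the members, each of which is part of that mean, tif301 was the nearest to it (0.0647), and tif302 (0.288) and sum1 (0.285) were the farthest from it, on opposite sides of it in slr1- total RNA.

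Annotated genes on the opposite strand, mostly long noncoding RNA genes, cover 83.7% of moe1, 73.9% of sum1, 73.5% of tif303, 53.9% of int6, 42.9% of tif301, 23.2% of tif308 and 17.5% of tif302. The library kit keeps strand, and whether the counting used it is not given in the sources used here. Without strand, reads of a gene and its opposite partner cannot be told apart.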

How the data were processed

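Per the labels' protocols, TRIzol RNA was freed of rRNA with Ribo-Zero Gold and built into TruSeq stranded libraries, read as single reads of 50 bases. The submitters' processing notes name Bowtie and RSEM; their versions, options, genome build and gene models are not stated there. The authors deposited estimated counts (expected counts), as whole numbers, for 527 genes, and the rule that listed these genes is not stated. Per the file headers they also deposited a log2 fold change, p-values and false discovery rates, a direction score, and ratios of polysome to total RNA. Names, transcripts and sequences came from RefSeq ASM294v3, where 515 identifiers matched.

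The test was edgeR 4.0.16 in R 4.3.3, with TMM factors and 1 mean per group over 8 libraries (4 residual degrees of freedom, biological coefficient of variation 0.113). Its code was checked on simulated counts with the same spread for all genes and balanced changes in slr1- total RNA alone, read in the total RNA comparison. That check does not cover the interaction or the scaling under one-sided changes. SE is the absolute log2 change over the square root of F. The lowest gene mean was 161 counts, so none was removed. Alternatives used DESeq2 1.42.0, limma 3.58.1 (voom), other scalings, a 500 count filter, fewer groups, replicate blocks and each library left out.

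The members, lists and tests were chosen with earlier results of these data known. The text names the 7 members, up to 3 further initiation factor genes per direction past the threshold (or that of smallest p), and the 5 nearest profiles.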

Additional observations from a re-analysis of the deposited data

How the results depend on the processing

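Without ribosomal protein genes in the TMM factors the median of all genes moved by 0.34 in total RNA, and with library sizes alone by -0.18 (a change of factors shifts all genes by about the same amount, so it leaves the members' distance from that median as it is). The split of all calls in total RNA, 104 higher and 177 lower, was then 182 and 72, and 60 and 260. In slr1- polysome against total RNA, 179 higher and 162 lower became 100 and 246, and 292 and 94; in WT, 110 and 152 became 79 and 166, and 246 and 104. The one sign that turned among the members' calls was sum1 in slr1- polysome against total RNA (-0.08).

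Members past the threshold in total RNA numbered 4, and 7 with library sizes alone, 6 of 6 with genes of at least 500 counts (moe1 was not among these genes), and 4 to 6 with a library left out. Over all 527 genes 177 passed as lower in total RNA in the main fit. With library sizes alone 260 did, and the median of all genes was -0.37. Among the genes of at least 500 counts 74 passed as lower. In polysome RNA 0 members passed under any alternative, but in DESeq2 6 of the 7 had no adjusted p and were counted as not passed. In the interaction 0 passed, against 2 in DESeq2, 1 with genes of at least 500 counts, 3 with library sizes alone, 1 with a replicate block, 3 with a block of same-numbered total and polysome libraries, and 0 to 4 with a library left out. In slr1- polysome against total RNA 7 passed, 4 without ribosomal protein genes in the factors and 4 to 7 with a library left out. In WT 3 passed, 5 with DESeq2 size factors or the compared groups alone, 6 with library sizes alone, and 2 to 3 with a library left out.

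Over all genes, 281 passed in total RNA (134 with the 500 count filter; 127 to 288 with a library left out), 0 in polysome RNA (27 in DESeq2; 0 to 2) and 2 in the interaction. The interaction count was 37 in DESeq2, 31 with library sizes alone, 13 with the filter, 9 with the replicate block, 46 with the block by strain, 0 in limma-voom or without ribosomal protein genes in the factors, and 0 to 77 with a library left out. In slr1- polysome against total RNA 341 passed (197 with the filter; 277 to 339), and in WT 262 (160 with the filter; 163 to 228). Leaving out a library leaves 1 in its group, assumed to vary like the others. The replicate numbers share only a number, with correlations of the replicates' log2 differences over genes of 0.07 between slr1- total and polysome RNA and 0.285 in WT; the replicate block changed 2 calls of the members, tif302 in the interaction (0.95, adjusted p = 0.0466) and sum1 in slr1- polysome against total RNA (0.31, adjusted p = 0.0521). With the block by strain tif302 (adjusted p = 0.0172), int6 (0.037) and tif303 (0.0446) passed in the interaction. The cause of these differences was not tested.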
